A study of Mus musculus with 3 samples.

Results

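Estrogen receptor alpha (Esr1) and estrogen receptor beta (Esr2) were followed here with 4 genes that estrogen is known to induce in other tissues, namely the progesterone receptor (Pgr), Greb1, Rerg and Pdzk1. These 6 genes were taken by symbol from the 32594 genes measured, and every one was found once. Cells came from whole prostates of C57BL6 mice, 12 to 15 weeks old per the sample labels, read by droplet single-cell RNA sequencing. One library came from Srd5a2 knockout (KO) tissue, and the other 2 libraries, HET 1 and HET 2, came from Srd5a2 heterozygous tissue, so the controls also lack 1 working copy and no wild-type library was compared. All tissues were digested for 2 h at 37 °C in a medium that held dihydrotestosterone. The deleted part of Srd5a2, the cells in which it was deleted and the animals behind each library are not stated in the labels, so p-values measure only the spread between these libraries.

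Estrogen receptors are nuclear receptors that bind estradiol, settle on DNA at estrogen response elements and switch target genes on or off. Srd5a2 turns testosterone into dihydrotestosterone, and testosterone that is not reduced can instead be converted to estradiol by aromatase. In the prostate ESR1 is best known from the stroma and ESR2 from the epithelium, and both tissues have been described in rodents as sites of estrogen action.

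Libraries held 129015041 unique molecular identifiers (UMIs, 1 per captured transcript) in 13273 barcodes for KO, 47601747 in 5000 for HET 1 and 100801564 in 13866 for HET 2. After filtering, 9054, 4499 and 9530 cells were kept in the same order of libraries, and 15 to 57 barcodes were shared by a pair of libraries. The labels were checked on Srd5a2 itself, which had 1 UMI in KO fibroblasts against 25 in HET 1 and 42 in HET 2, 3 UMIs in KO smooth muscle against 59 and 54, and 5 UMIs in KO cells of basal cluster 10 against 32 and 28. Cells were grouped into classes by marker genes, and 7 classes with at least 50 cells in every library were tested. These were luminal cells (1330 in KO, 2421 in HET 1, 4775 in HET 2), basal cells, seminal vesicle-like cells, ionocytes, fibroblasts, smooth muscle and endothelial cells. Seminal vesicle-like cells were 2515 in KO against 358 and 836, and clusters 9 and 12 among them came almost only from KO. Among luminal cells, cluster 5 held 36 cells in KO, against 52 and 950, and cluster 22 held 0, against 14 and 357. Cluster 16 held 46 cells in KO, against 248 and 270, so luminal class values compare unlike mixes of clusters. Levels are given as CPM, a gene's UMIs scaled to 1000000 UMIs in the class (plain totals), and intervals cover counting error only. Fold changes are log2, KO over HET, for 1 against 2 libraries. Their standard error is worked back from the edgeR test statistic, whose spread draws on all genes tested. Every adjusted p is from edgeR over all genes of the class unless another tool is named. A gene was called at an adjusted p under 0.05.

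In the genome of the files (mm10), all 6 are protein-coding genes of GENCODE vM21. Esr1 (ENSMUSG00000019768.16) spans chromosome 10, 4611593 to 5005614, plus strand, and Esr2 (ENSMUSG00000021055.14) spans chromosome 12, 76120419 to 76177259, minus strand. Pgr (ENSMUSG00000031870.16) lies on chromosome 9, 8899833 to 8968611, plus strand. Greb1 (ENSMUSG00000036523.16) lies on chromosome 12, 16670615 to 16800886, minus strand. Rerg (ENSMUSG00000030222.13) lies on chromosome 6, 137054825 to 137170497, minus strand, and Pdzk1 (ENSMUSG00000038298.14) on chromosome 3, 96829284 to 96870926, plus strand. None of the 6 lies on chromosome 17, where Srd5a2 is.

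The 250 bases before the start site are shown for Pgr and Pdzk1, the members called in opposite directions in luminal cells, and for Greb1, which changed in a single luminal cluster. They are from RefSeq on GRCm38.p6 and read 5′ to 3′ on the gene's strand, with capitals marking the estrogen response half-site AGGTCA on either strand. The Pgr stretch is chr9:8899583-8899832, the Greb1 stretch chr12:16800887-16801136 and the Pdzk1 stretch chr3:96829815-96830064.
Pgr: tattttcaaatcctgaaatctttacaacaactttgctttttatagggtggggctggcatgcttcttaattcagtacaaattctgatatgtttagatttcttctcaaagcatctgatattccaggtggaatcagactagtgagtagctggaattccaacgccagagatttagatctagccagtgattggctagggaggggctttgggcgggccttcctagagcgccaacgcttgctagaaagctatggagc
Greb1: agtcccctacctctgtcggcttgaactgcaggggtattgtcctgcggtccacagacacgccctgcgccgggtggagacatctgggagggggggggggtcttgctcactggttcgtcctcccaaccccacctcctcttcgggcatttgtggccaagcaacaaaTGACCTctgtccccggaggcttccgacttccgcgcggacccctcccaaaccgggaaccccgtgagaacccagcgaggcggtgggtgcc
Pdzk1: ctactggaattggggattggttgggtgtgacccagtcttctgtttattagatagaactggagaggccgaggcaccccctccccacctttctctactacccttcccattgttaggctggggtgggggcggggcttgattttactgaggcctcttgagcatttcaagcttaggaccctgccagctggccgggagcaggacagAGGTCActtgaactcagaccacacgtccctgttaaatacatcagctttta
The full element (GGTCA, then 3 bases of any kind, then TGACC), which can overlap the half-site, was in none of the 8 windows of 300 bases that RefSeq gave for 5 of the 6 members, and in 0.0700% of 32851 mouse promoter windows. The half-site was in 2 of the 8, at position -88 of Greb1 and -50 of Pdzk1 counted from the start site, against 16.3% of all windows. The Pdzk1 start shown lies 781 bases inside the GENCODE gene, while those of Pgr and Greb1 match its ends. No window was given for Rerg.

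Among the 7 tested classes, luminal cells and fibroblasts had the most Esr1 in both genotypes. Macrophages, taken as the background of free RNA, stood at 17.02 CPM in KO (9 UMIs), against 9.97 in HET 1 (1 UMI) and 15.3 in HET 2 (4 UMIs). T or NK cells, also a background class, stood at 25.4 CPM in KO (18 UMIs), against 123 (7 UMIs in 13 cells) and 8.28 (1 UMI). Barcodes under 500 genes stood at 53.1 CPM in KO and 34.5 in HET 2. In KO and HET 2, the counting intervals of basal, endothelial and smooth muscle cells overlapped those of such barcodes or lay below them. On plain totals, levels in ionocytes and seminal vesicle-like cells overlapped or lay below those of macrophages and are not read as expression. Without seminal vesicle secretion genes in the total, seminal vesicle-like cells stood at 33.1 CPM in KO, against 15.0 and 16.1. Macrophages then stood at 18.0 CPM in KO, against 10.0 and 15.5, so the reading for this class depends on the total used. In luminal cells Esr1 stood at 94.1 CPM in KO (1865 UMIs), against 75.9 in HET 1 (2035 UMIs) and 77.1 in HET 2 (3902 UMIs). The KO value lay above both HET values, but the fold change of 0.33 ± 0.29 did not pass (adjusted p = 0.9997). In fibroblasts, the cells in which prostatic estrogen receptor alpha is classically described, it stood at 97.7 CPM in KO, against 70.0 in HET 1 and 97.6 in HET 2. By the mean over libraries the order was fibroblast (88.4 ± 16.01 CPM, SD over 3 libraries), luminal (82.4 ± 10.2), basal (35.8 ± 3.7), endothelial (31.6 ± 14.9), smooth muscle (29.9 ± 2.7), ionocyte (11.01 ± 0.96) and seminal vesicle-like (7.58 ± 0.95). Fibroblasts and luminal cells overlapped over libraries, and so did basal, endothelial and smooth muscle cells. Esr1 was not called in basal cells (-0.16 ± 0.22), fibroblasts (0.31 ± 0.38), smooth muscle (0.03 ± 0.32), ionocytes (0.09 ± 0.38) or endothelial cells (0.80 ± 0.56). Luminal cells gave between 46.98% and 82.1% of a library's Esr1 UMIs, with the lowest share in KO.

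**Figure D1:**
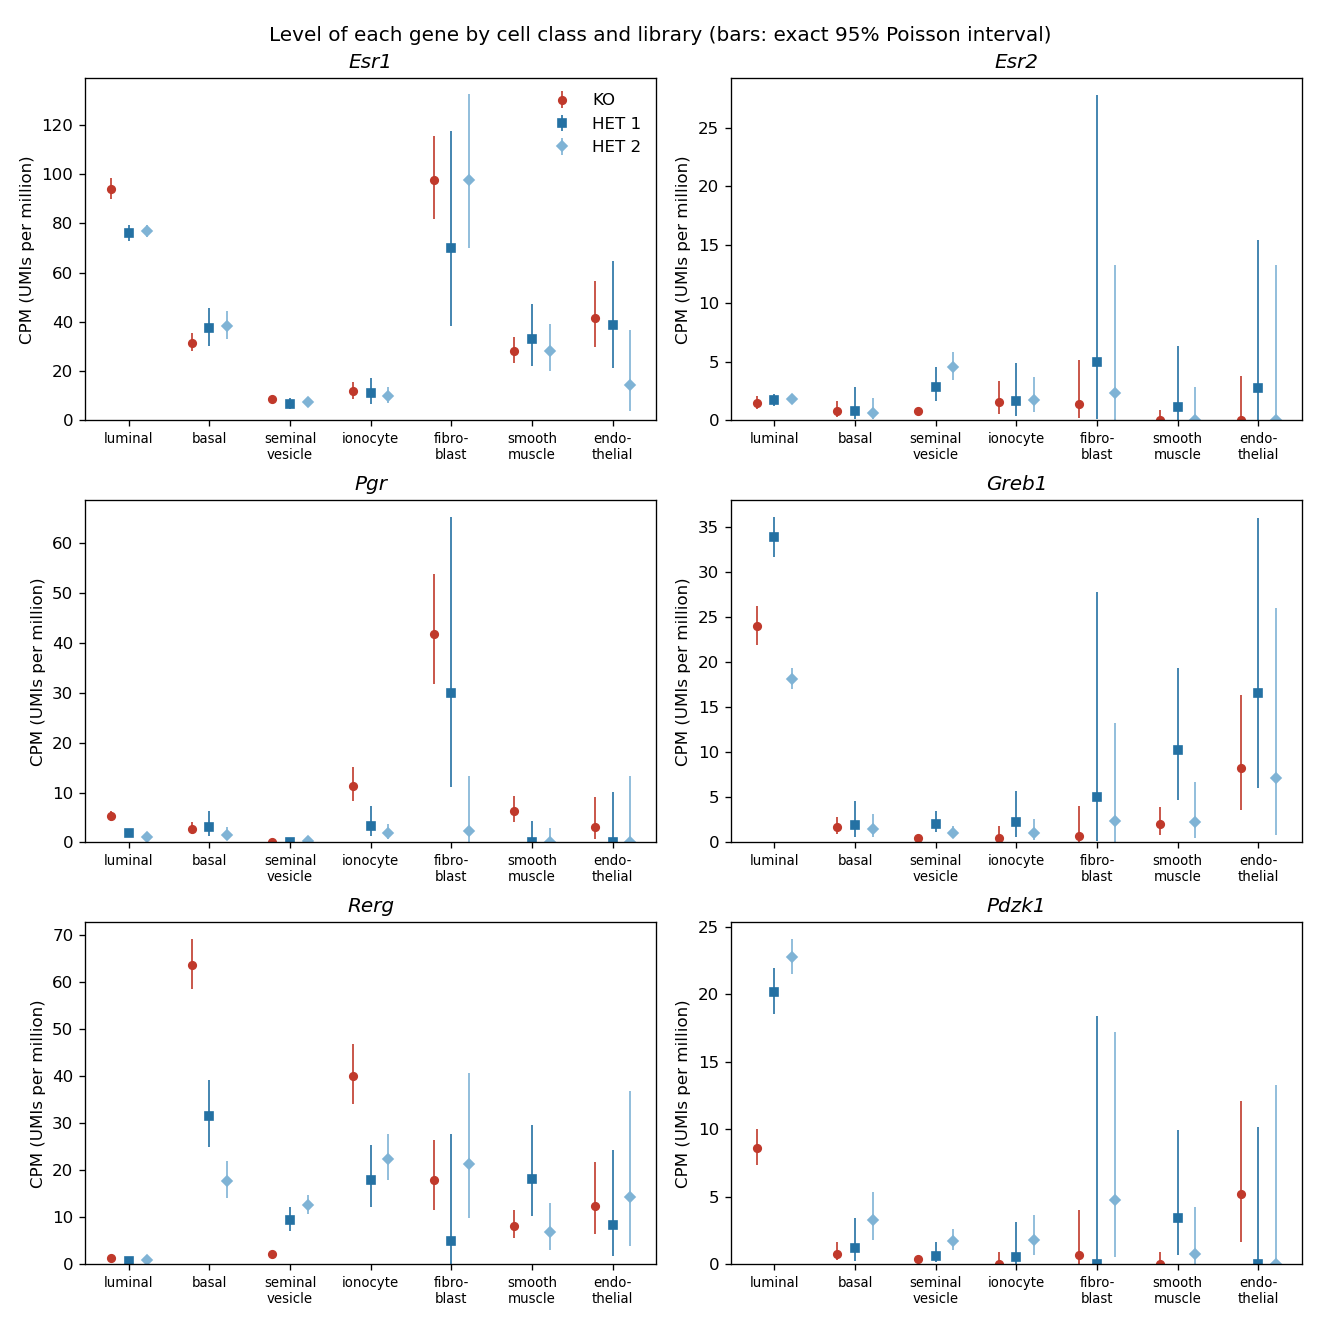
Level of each of the 6 genes (vertical axes, CPM) in 7 cell classes, 1 point per library with the KO library left of HET 1 and HET 2 and exact 95% Poisson bars. Esr1 is highest in luminal cells and fibroblasts in every library, luminal Pgr is 5.25 CPM in KO against 1.94 and 1.13, and luminal Pdzk1 is 8.62 against 20.2 and 22.8.

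Among luminal clusters, 4 of the secretory ones had similar Esr1 levels. Clusters 1 (led by Gpx3, Ms4a5 and Tcaf3), 2 (Ren1, Pnliprp1), 3 (C1s2, Pnliprp1) and 14 (Msmb, Wfdc3, Defb50) ranged from 98.5 to 118 CPM in KO, from 90.9 to 109 in HET 1 and from 82.8 to 95.7 in HET 2. Cluster 16, led by Spink5, Sbp and Spink1, had less, at 23.2 CPM in KO, against 12.2 in HET 1 and 27.2 in HET 2. Proximal luminal cells of cluster 13, led by Psca and Krt4, had 30.9 CPM in KO, against 21.5 and 23.1. No luminal cluster was called for Esr1, with fold changes of 0.14 ± 0.31, 0.10 ± 0.28, 0.34 ± 0.27, 0.72 ± 0.37 and 0.52 ± 0.31 in clusters 1, 2, 3, 13 and 14. Of all genes tested in these clusters, 3.05%, 1.43%, 2.24%, 2.31% and 1.05% were called. Over the 8 luminal clusters with at least 30 cells in each library, KO lay above both HET libraries in 4 and below both in 1.

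The highest Esr1 levels were in clusters 6 and 19, shallow cells that carried no cell type name. Cluster 19 (314, 28 and 143 cells in KO, HET 1 and HET 2) had 460 CPM in KO, against 339 in HET 1 and 295 in HET 2. Its leading genes were Sema5b, Banf2, Sim1 and Scin. Cluster 6 (480, 83 and 458 cells), led by Gm4876, Otud7a, Pvt1 and Rrp1b, had 338 CPM in KO, against 329 in HET 1 and 179 in HET 2, and Esr1 was not called there (0.45 ± 0.39, adjusted p = 0.912), where 1.04% of genes were. Together they were 8.77% of KO cells and gave 21.5% of KO Esr1 UMIs. In HET 1 they were 2.47% of cells and 6.45% of Esr1 UMIs, and in HET 2 they were 6.31% and 5.35%. The median cell had 1914 UMIs in cluster 19 and 2040 in cluster 6, and Malat1, a nuclear RNA, took 5.67%, 4.87% and 6.52% of UMIs in cluster 19, against 1.59%, 1.27% and 0.630% in luminal cells (KO, HET 1, HET 2). Probasin (Pbsn), a luminal secretory product, stood in cluster 19 at 7734 CPM in KO, against 9158 and 12637, and in endothelial cells, which should lack it, at 6408 CPM in KO, against 4819 and 4108. Summed endothelial markers in cluster 19 were 1040 CPM in KO, against 1317 and 609, and in endothelial cells 3166, against 3849 and 4742. Of 6 endothelial markers, 1 (Pecam1) passed the detection rule in cluster 19. Summed luminal secretory markers there were 16980 CPM in KO, against 31958 and 37150, and in endothelial cells 14777, against 12510 and 15700. Cluster 19 had less Krt8 and Krt18 than clusters 1 and 2 in every library. Its Krt8 (325, 192 and 342 CPM) lay on both sides of that in cluster 14 (313, 282 and 245), and its Krt18 lay below. No luminal marker passed the detection rule in clusters 6 and 19. The part of nuclear RNA and shallow depth in their Esr1 level was not tested.

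**Figure D2:**
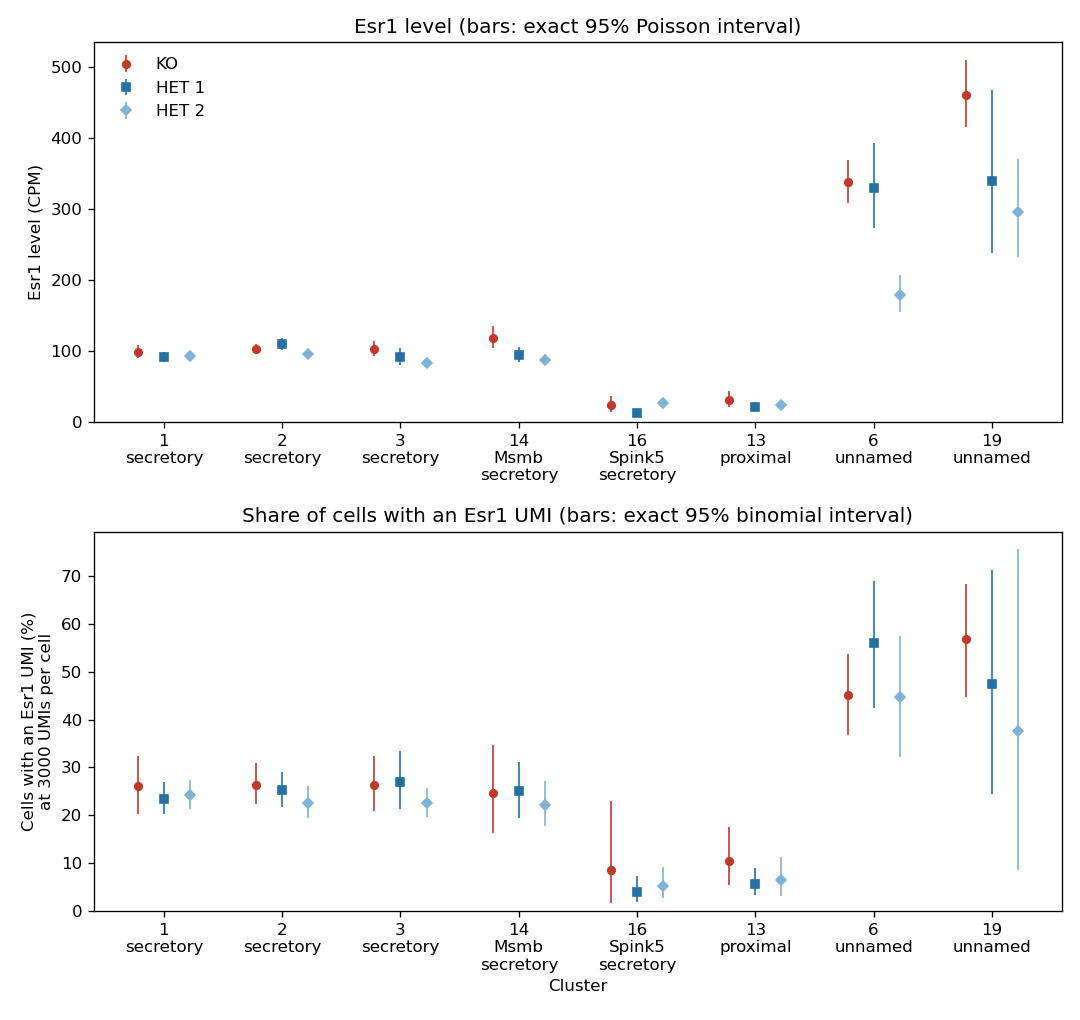
Esr1 level (upper panel, CPM) and share of cells with an Esr1 UMI after thinning each cell to 3000 UMIs (lower panel, percent) in 6 luminal clusters and unnamed clusters 6 and 19, 1 point per library with KO left of HET 1 and HET 2. Clusters 1, 2, 3 and 14 lie between 82.8 and 118 CPM in every library, and clusters 6 and 19 between 179 and 460.

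At equal depth, the gap between KO and HET in how many luminal cells had an Esr1 UMI depended on which cells were counted and how they were thinned. With each cell thinned to 1000 UMIs, 7.77% of KO luminal cells had one (exact 95% interval 6.38 to 9.34%, 103 of 1326), against 7.81% in HET 1 (6.77 to 8.95%, 189 of 2421) and 6.91% in HET 2 (6.20 to 7.68%, 323 of 4673). Shallower cells left out were 4, 0 and 102. Averaged over all ways of thinning, the shares were 8.60% in KO, against 7.46% and 6.86%, and at 3000 UMIs they were 23.5% against 19.8% and 20.03%. Without thinning they were 55.6% in KO, against 43.6% and 43.8%, at medians of 13097, 9411 and 9236 UMIs per cell. Counting clusters 6, 15, 19 and 28 as luminal, an alternative added after seeing the data, gave 15.1% in KO, against 9.08% and 7.68%. In clusters 1, 2, 3 and 14 at 3000 UMIs the KO shares were 26.0%, 26.4%, 26.4% and 24.7%, against 23.5%, 25.2%, 27.0% and 25% in HET 1 and 24.2%, 22.6%, 22.6% and 22.3% in HET 2, and all their intervals overlapped. Macrophages averaged 1.32% in KO, against 0.818% and 1.18%, at 1000 UMIs and median depths of 3600, 3198 and 2529 UMIs. With 1 against 2 libraries an exact permutation test cannot go below 0.33, so no test was made on shares.

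Seminal vesicle-like cells were the single class in which Esr1 was called, and the call moved with the clusters and scaling used. Here 2 of the 5 members that passed the filter were called, Esr1 up and Rerg down, where 8.95% of all 12789 genes were. On plain totals Esr1 stood at 8.59 CPM in KO, against 6.70 in HET 1 and 7.44 in HET 2. Trimmed-mean scaling gave a fold change of 1.32 ± 0.30 (adjusted p = 0.000995), and plain totals gave 0.27 (adjusted p = 0.437). Genes of seminal vesicle secretion took 74.0% of UMIs in KO, against 55.2% and 53.7%. Cluster 9, with 823 KO cells against 1 and 3, held 243 of the 519 KO Esr1 UMIs at 74.1 CPM. In cluster 4 (Pate8, Svs2), which held cells of all libraries, Esr1 stood at 1.70 CPM in KO, against 2.55 and 2.86, and was not called (-0.72 ± 0.58), where 2.32% of genes were. Rerg was called lower in the class (-1.26 ± 0.33, adjusted p = 0.00565) but not in cluster 4 (-0.22 ± 0.32), where it stood at 10.7 CPM in KO, against 10.2 and 13.8. The class call for Rerg ended with DESeq2 (adjusted p = 0.257) and the stricter cell filter (adjusted p = 0.0623). That for Esr1 also ended with both (adjusted p = 0.137 and 0.0656).

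Esr2 was sparse everywhere. All kept cells together held 99 Esr2 UMIs in KO, against 75 in HET 1 and 185 in HET 2, and the most in any cell was 4. Cluster 4 of the seminal vesicle-like cells held 42 of them in KO (4.21 CPM), against 17 in HET 1 (3.097 CPM) and 54 in HET 2 (4.98 CPM), with no call (-0.04 ± 0.41). Luminal cells stood at 1.46 CPM in KO, against 1.72 and 1.80 (-0.23 ± 0.51, adjusted p = 0.9997). The UMIs lay in 93, 73 and 177 cells in the same order of libraries, and no difference was detectable in luminal cells or cluster 4 at this depth. Over the whole seminal vesicle-like class Esr2 stood at 0.811 CPM in KO, against 2.87 and 4.54, with a fold change of -1.18 ± 0.49 (adjusted p = 0.150). Plain totals called it lower (-2.22, adjusted p = 0.000121), but that fit called most of the genes it tested in this class.

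The progesterone receptor rose in KO luminal cells. Pgr is a steroid receptor and the most widely used readout of estrogen receptor activity in the uterus and breast. Luminal cells held 104 Pgr UMIs in KO (5.25 CPM), against 52 in HET 1 (1.94 CPM) and 57 in HET 2 (1.13 CPM), and the KO value and its counting interval (4.29 to 6.36 CPM) lay above both HET intervals. The fold change was 1.83 ± 0.41 (adjusted p = 0.000971), with 1.38 against HET 1 and 2.19 against HET 2. All 6 members passed the filter on low counts in luminal cells and 2 were called, Pgr higher and Pdzk1 lower, where 1.81% of all 16772 genes tested were called. DESeq2 (adjusted p = 0.247) and a fit without the filter (adjusted p = 0.204) did not call Pgr, and over all alternatives its adjusted p ran from 1.87e-05 to 0.247.

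The Pgr UMIs were scattered over many luminal cells and clusters. They lay in 91 KO cells of 1330, against 47 of 2421 in HET 1 and 56 of 4775 in HET 2, and the 10 cells with the most gave 21.2% of KO UMIs. With every cell thinned to 3000 UMIs they were 1.198% of KO cells (14 cells), against 0.356% (8) and 0.318% (12), and at 1000 UMIs 0.452% (6), against 0.3304% (8) and 0.150% (7). KO lay above both HET libraries in 7 of 8 luminal clusters. In cluster 1 Pgr stood at 3.98 CPM in KO, against 0.809 in HET 1 and 0.344 in HET 2, on 17, 6 and 4 UMIs. It was called there (2.89 ± 0.86, adjusted p = 0.0314), where 3.05% of genes were. In that cluster Pgr passed the filter on low counts through the KO library alone, so the call adds no support. In cluster 2 it stood at 5.28 CPM in KO, against 1.54 and 0.453, and was called (2.56 ± 0.63, adjusted p = 0.0056), where 1.43% of genes were. It was not called in cluster 3 (1.88 ± 1.11) or in cluster 14 (0.98 ± 0.50), where the level was 11.04 CPM in KO, against 7.81 and 4.90. The differences between these clusters were not tested. Unnamed cluster 19 had 44.3 CPM in KO (36 UMIs), against 27.4 in HET 1 and 11.8 in HET 2 on 3 UMIs each.

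Other cells' RNA was measured beside the luminal Pgr result. All 7 fibroblast markers had UMIs in luminal cells of every library, and their sum was 64.9 CPM in KO, against 74.8 in HET 1 and 73.4 in HET 2. Most of it was Dcn, at 58.7 CPM in KO, against 68.3 and 66.8. Seminal vesicle markers (7 of 7 with UMIs in every library) summed to 24048 CPM in KO luminal cells, against 3676 and 16752. Seminal vesicle-like cells themselves had Pgr at 0.132 CPM in KO, against 0.159 and 0.313. Malat1 stood at 15875 CPM in KO luminal cells, against 12692 and 6304. The part of other cells' RNA and of nuclear RNA in the Pgr difference was not tested.

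Pgr also rose in ionocytes, a rare epithelial type that acidifies fluid. Ionocytes had 44 UMIs in KO (11.3 CPM), against 6 in HET 1 (3.37 CPM) and 7 in HET 2 (1.79 CPM), a fold change of 2.17 ± 0.54 (adjusted p = 0.00976). Of 3 members that passed the filter, Pgr was the one called, where 1.53% of 10883 genes were. The UMIs lay in 24 of 208 KO cells, with 68.2% in 10 of them, and in 5 of 109 and 7 of 220 HET cells. The call ended with median-ratio size factors (adjusted p = 0.0682) and with DESeq2 (adjusted p = 0.99996). Fibroblast markers summed to 22.1 CPM in KO ionocytes, with 1 of 7 at 0 (Lum), against 10.7 (Col1a1, Lum and Pdgfra at 0) and 9.70 (Col1a2, Col1a1 and Lum at 0), and seminal vesicle secretion genes took 36.6% of their UMIs, against 42.5% and 41.6%.

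In the stroma, Pgr was highest in fibroblasts, and HET libraries differed there among themselves. Fibroblasts had 41.7 CPM in KO (58 UMIs), against 29.98 in HET 1 (6 UMIs) and 2.38 in HET 2 (1 UMI). The fold change of 1.94 ± 0.65 did not pass (adjusted p = 0.131), and it was 0.76 against HET 1 and 3.20 against HET 2. It passed with doublets kept (adjusted p = 0.0179), a setting that called over 1.5 times as many fibroblast genes as the main fit. Of the 2 members tested in fibroblasts none was called in the main fit, where 1.5% of genes were. Smooth muscle had 25 Pgr UMIs in 21 KO cells and none in either HET library. The KO level was 4.54-fold above a floor of 3 UMIs over both HET libraries, without counting error. The KO counting interval (4.04 to 9.21 CPM) overlapped that of HET 1 (0 to 4.19) but not that of HET 2 (0 to 2.83). There Pgr was under the count filter and so not in the main test. Without that filter edgeR called it (adjusted p = 0.00386). In the main fit 4.45% of smooth muscle genes were called. Summed fibroblast markers in smooth muscle were 1993 CPM in KO, against 3207 and 2593. Basal cells had 2.73 CPM in KO, against 3.15 and 1.52, with no call (0.43 ± 0.71).

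**Figure D3:**
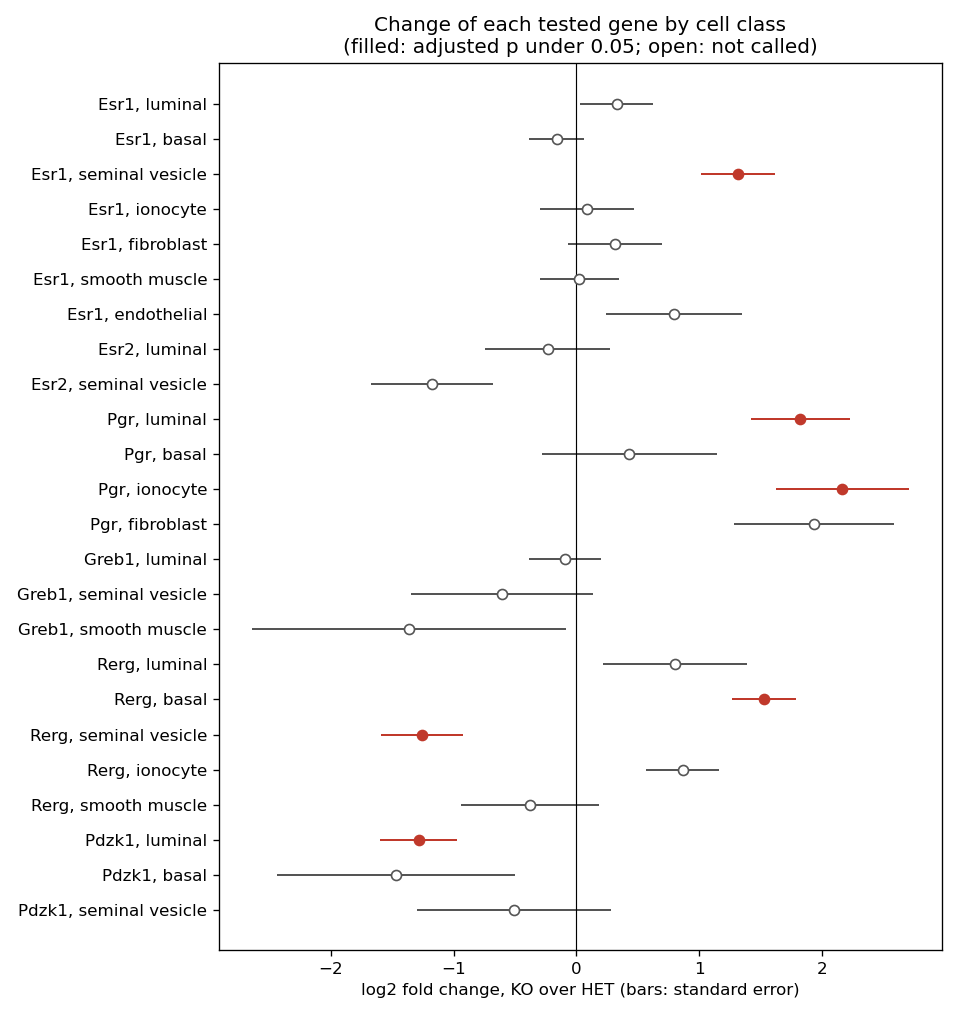
Log2 fold change (horizontal axis, KO over HET, bars are the standard error) of each member in each class where it passed the filter on low counts. Filled points are called: Esr1 and Rerg in seminal vesicle-like cells, Pgr in luminal cells (1.83) and ionocytes (2.17), Rerg in basal cells (1.53) and Pdzk1 in luminal cells (-1.29).

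Greb1, a coactivator of the estrogen receptor and an early estrogen response gene in human breast cells, did not follow Pgr. Luminal cells had 24.0 CPM in KO, against 33.9 in HET 1 and 18.2 in HET 2, so the KO library lay between the others (-0.09 ± 0.29, adjusted p = 0.9997). Of all clusters, cluster 1 held the largest share of Greb1 UMIs (49.3% in KO, against 52.7% and 40.2%), at 86.1 CPM in KO (368 UMIs), against 79.0 in HET 1 (586 UMIs) and 37.7 in HET 2 (439 UMIs), which was not called (0.60 ± 0.30, adjusted p = 0.422). In cluster 2 it stood at 6.95 CPM in KO, against 27.0 and 17.4, below both, and was called lower (-1.58 ± 0.34, adjusted p = 0.000631). The change in cluster 1 exceeded that in cluster 2 by 2.24 ± 0.24 on the log2 scale (adjusted p = 2.44e-05 over 12054 genes), a pair chosen after its values were seen. KO was below both HET libraries in 6 of 8 luminal clusters and above both in 1. Unnamed cluster 6 had 123 CPM in KO, against 340 in HET 1 and 40.1 in HET 2, with KO again between the HET libraries.

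Rerg, a Ras-like GTPase that is lower in aggressive human breast cancers, rose in basal cells. Basal cells held 561 UMIs in KO (63.8 CPM), against 80 in HET 1 (31.5 CPM) and 82 in HET 2 (17.8 CPM), and no counting intervals of KO and HET overlapped. The fold change was 1.53 ± 0.26 (adjusted p = 0.00488), with 1.19 against HET 1 and 1.95 against HET 2. It was the one called of 4 members that passed the filter, where 2.02% of 12056 genes were called. DESeq2 did not call it (adjusted p = 0.125). The UMIs lay in 364 of 1780 KO cells, and 10 cells gave 9.45% of them. KO lay above both HET libraries in 3 of 3 basal clusters, and the difference between clusters was not tested. In cluster 0, led by Krt17, Krt14 and Col17a1, Rerg was called at 99.0 CPM in KO, against 37.6 and 21.2 (1.89 ± 0.24, adjusted p = 9.03e-09), where 2.58% of genes were called. Cluster 21, led by Trp63, stood at 46.8 CPM in KO, against 36.7 and 13.1, and was not called (1.43 ± 0.46, adjusted p = 0.150), where 0.905% of genes were. In ionocytes, the class next in order, Rerg stood at 40.1 CPM in KO, against 18.0 and 22.5, which was above both but not called (0.87 ± 0.30, adjusted p = 0.152). Luminal cells had 26 Rerg UMIs in KO (1.31 CPM), against 18 (0.672) and 43 (0.849), the lowest mean level of the 7 tested classes. Summed basal markers were 5954 CPM in KO basal cells, against 6510 and 4625.

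Pdzk1, a scaffold for membrane transporters, fell in luminal cells. It stood at 8.62 CPM in KO (171 UMIs), against 20.2 in HET 1 (541 UMIs) and 22.8 in HET 2 (1153 UMIs). The fold change was -1.29 ± 0.31 (adjusted p = 0.00455), with -1.25 against HET 1 and -1.36 against HET 2. DESeq2 (adjusted p = 0.0531) and a fit without the filter (adjusted p = 0.168) did not call it. Cluster 14, the Msmb cluster, gave 46.0% of all KO Pdzk1 UMIs, against 67.9% and 61.4%, and Pdzk1 was among its 10 leading genes. Within it Pdzk1 stood at 56.8 CPM in KO, against 127 and 153, below both, which did not pass the threshold (-1.16 ± 0.34, adjusted p = 0.0611). In clusters 1, 2 and 3 it stood at 2.81, 4.03 and 0.510 CPM in KO, against 4.45, 6.14 and 0.403 in HET 1 and 2.84, 5.21 and 0.822 in HET 2. In cluster 16 it stood at 20.9 CPM in KO, against 16.9 and 22.3. KO was below both HET libraries in 4 of 8 luminal clusters and above both in 0. Cluster 14 made up 97 of 1330 KO luminal cells, against 246 of 2421 and 356 of 4775.

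**Figure D4:**
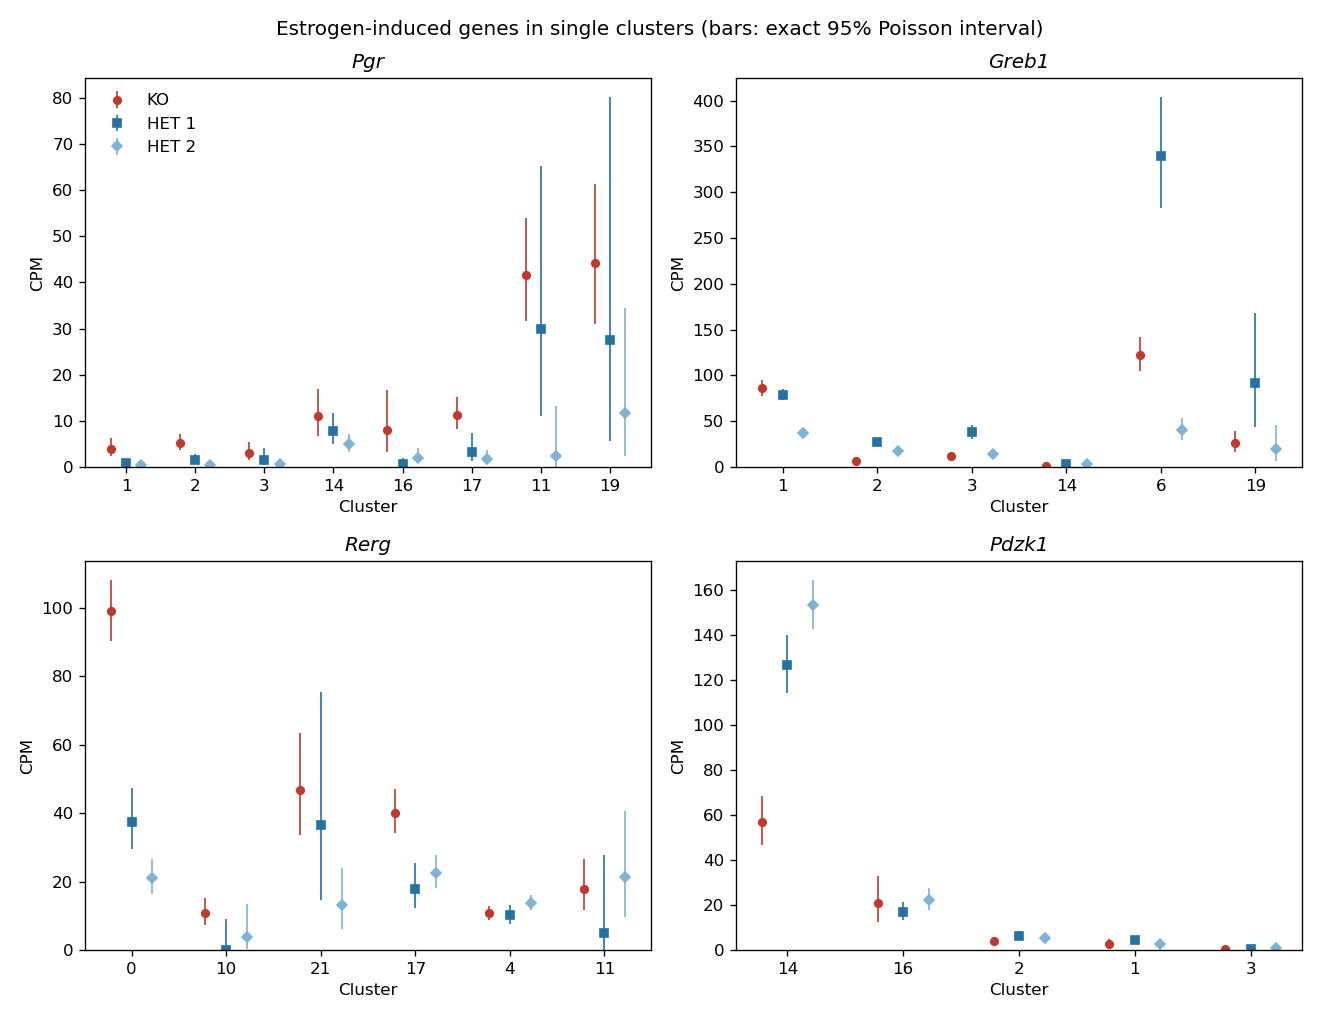
Levels (vertical axes, CPM) of Pgr, Greb1, Rerg and Pdzk1 in the clusters that held most of each, 1 point per library with KO left of HET 1 and HET 2 and exact 95% Poisson bars. Clusters 1, 2, 3, 14 and 16 are luminal secretory, 0, 10 and 21 basal, 17 ionocyte, 11 fibroblast, 4 seminal vesicle-like, and 6 and 19 unnamed. Rerg in cluster 0 is 99.0 CPM in KO against 37.6 and 21.2, and Pdzk1 in cluster 14 is 56.8 against 127 and 153.

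Within luminal clusters, no concentration of Greb1 or Pdzk1 in cells with an Esr1 UMI was detectable. At 3000 UMIs per cell, Greb1 was seen in 8.73% of KO luminal cells with Esr1 (exact 95% interval 5.67 to 12.7%) and 4.47% of those without (3.22 to 6.04%). In HET 1 the shares were 11.01% and 7.71%, and in HET 2 they were 5.42% and 4.51%. Summed within clusters, cells with both genes were 22 in KO where independence gives 15.5, 48 in HET 1 where it gives 41.9 and 40 in HET 2 where it gives 38.2. The ratios were 1.42 in KO (95% interval 0.889 to 2.15), 1.14 in HET 1 (0.844 to 1.52) and 1.05 in HET 2 (0.747 to 1.42), and each interval holds 1. For Pdzk1 the ratios were 1.44 in KO (0.622 to 2.84), 1.02 in HET 1 and 0.947 in HET 2. Cells with both Pgr and Esr1 were 2 in KO, 3 in HET 1 and 2 in HET 2, too few to place. With another random thinning they were 7 in KO, where independence gives 4.07, against 5 and 3 in HET 1 and HET 2.

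Other estrogen targets, taken from a list of 40, did not move as a group in luminal cells. Of 37 tested, 1 was higher and 1 lower (5.41%, where 1.81% of all genes were called), with a median log2 fold change of -0.05 beside -0.03 over all genes. Areg, an epidermal growth factor receptor ligand, rose to 128 CPM in KO on scaled totals, against 91.5 and 28.1 (1.10 ± 0.29, adjusted p = 0.0115). Olfm1, a secreted glycoprotein, fell to 0.768 CPM, against 1.97 and 4.40 (-2.07 ± 0.51, adjusted p = 0.00598). Both calls ended with DESeq2 and without the filter. In basal cells 3 of 31 were higher and none lower (9.68%, where 2.02% of all genes were called, median 0.07 beside -0.00498), namely Cxcl12, a chemokine (0.96 ± 0.23), Stc2, a secreted glycoprotein (1.94 ± 0.43), and Igfbp4, which binds insulin-like growth factors (1.76 ± 0.37), all not called by DESeq2 or limma-voom. In seminal vesicle-like cells 1 was higher and 5 lower of 32 (18.8%, where 8.95% of all genes were called), with a median of -0.31 beside -0.02. Ltf (-2.29 ± 0.36), Wnt4 (-1.97 ± 0.32) and Agr2 (-1.56 ± 0.33) were among the lower, and Areg (2.10 ± 0.53) was the higher, a call lost in 6 of 12 other settings. Ltf turned its direction in 1 of them.

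Agr2, a chaperone of secretory cells, was also lower in ionocytes (-1.62), fibroblasts (-1.96) and smooth muscle (-2.21), and luminal cells, where it was most abundant, showed 0.06 ± 0.33. The ionocyte call ended with median-ratio factors, plain totals and DESeq2, and the fibroblast call with DESeq2 and limma-voom. Summed luminal secretory markers in fibroblasts were 2855 CPM in KO, against 5047 and 16224, in smooth muscle 1910 against 3886 and 9442, and in ionocytes 4395 against 8246 and 7036. Their part in the Agr2 difference was not tested. Beside Agr2, Igf1 was called lower in smooth muscle (2 of 26), a call kept in 7 of 12 other settings. Agr2 was the one called of 27 in ionocytes and of 25 in fibroblasts, where 1.53% and 1.5% of all genes were. None of 18 was called in endothelial cells, where 0.788% of genes were. In smooth muscle 4.45% of all genes were called.

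Receptor partners, the coactivators, corepressors and related receptors, showed no call in 6 of 7 classes. In luminal cells 0 of 22 were called, with a median of -0.08, and the pioneer factor Foxa1 was at -0.50 ± 0.31 (adjusted p = 0.820). Esrrg, an orphan receptor related to Esr1, was the 1 of 20 called in seminal vesicle-like cells (-1.55 ± 0.32), where 8.95% of all genes were called. Among 14 tested genes of estrogen synthesis and breakdown, 1 was called in luminal cells, where 1.81% of all genes were. This was Cyp1a1, which hydroxylates estradiol and is induced through the aryl hydrocarbon receptor. Its level rose to 8.49 CPM in KO, against 1.48 and 0.941 (2.84 ± 0.38, adjusted p = 5.82e-11), and this call held in all 14 other settings. Sult1e1, which inactivates estradiol by sulfation, was the 1 of 9 called in basal cells, where 2.02% of all genes were. It stood at 3.84 CPM in KO, against 17.9 and 12.3 (-1.93 ± 0.37, adjusted p = 0.00996), a call lost with DESeq2 and limma-voom. Of genes that the progesterone receptor induces in uterus, 10 were tested in luminal cells. None was higher, and 2 were lower, Cited2 (-1.36 ± 0.32, adjusted p = 0.00315) and Edn1 (-1.16 ± 0.31, adjusted p = 0.0138), with a median of -0.39, where 1.81% of all genes were called. Both calls ended without the filter, and that of Edn1 also with DESeq2. Edn1, the vasoconstrictor endothelin 1, was the 1 of 9 called in smooth muscle, where 4.45% of all genes were. It was higher there (3.67 ± 0.39, adjusted p = 5.52e-15).

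Over 21 sums of a class in a library, the genes whose level followed Esr1 most closely, among 10800 compared, were Abca5 (Pearson r 0.915), 1110038B12Rik (0.912), Plekha4 (0.911), Eef1a1 (0.903) and Naaladl2 (0.903). Among those closest to Pgr were Ist1 (0.793), Nvl (0.776), Rab7b (0.753) and Metap1d (0.752). The points share libraries and the dilution by seminal vesicle RNA, and no p is given.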

How the data were processed

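Single-cell RNA of whole prostate was measured in 1 KO and 2 HET libraries, grouped by the genotype label. The authors deposited raw UMI counts per gene and barcode, and the submitters' processing notes name Cell Ranger 3.1.0 and mm10. Of 32594 gene IDs, 31952 matched GENCODE vM21. The members and gene lists were chosen with earlier results of these data known.

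Barcodes under 500 genes or over 15% mitochondrial UMIs were left out. Scrublet's automatic threshold (scanpy 1.11.5) called under 0.5%, so the top-scoring 0.8% per 1000 cells was removed (929, 219 and 1057 cells). Cells were clustered jointly without batch correction (2000 variable genes, 30 components, 15 neighbors, Leiden resolution 1.0, igraph 0.11.9), leaving out 70 genes abundant in empty droplets. Clusters took a name on 3 or more markers. Cluster 8, with near-equal shares of 2 marker lists, was left unnamed by a rule added after seeing it. None of the members was a clustering gene in the main clustering. The setting that left members out of clustering, counted among the other settings, is therefore close to a repeat of the main fit. With the stricter cell filter Pgr was a clustering gene.

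UMIs were summed per class and library and tested with edgeR 4.0.16 (trimmed-mean scaling, filterByExpr, quasi-likelihood fit, 1 residual degree of freedom, Benjamini-Hochberg over all genes). The filter can pass a gene through 1 library. DESeq2 1.42.0, limma-voom (limma 3.58.1), other scalings, filters and clusterings were alternatives. The fit was tested on simulated data. List genes were named where called, at most 10 in luminal cells and 5 in another class. Of the 5 genes most like Pgr in pattern, 4 are given and 1 is not reported here.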

Additional observations from a re-analysis of the deposited data

Results flagged for a closer look

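Greb1 changed differently in luminal clusters 1 and 2: the test of the difference gave 2.24 ± 0.24 on the log2 scale (adjusted p = 2.44e-05, edgeR), with 0.60 in cluster 1 and -1.58 in cluster 2. Rerg changed differently in basal and seminal vesicle-like cells, by 2.84 ± 0.38 (adjusted p = 5.01e-11), with 1.53 and -1.26. Esr1 changed differently in seminal vesicle-like and basal cells, by 1.46 ± 0.36 (adjusted p = 0.00258), with 1.32 and -0.16. In both pairs the seminal vesicle-like class holds clusters found almost only in KO. Plain totals gave 0.27 for Esr1 and -2.31 for Rerg in that class. In cluster 4, present in all libraries, Rerg was at -0.22 and Esr1 at -0.72, neither called.

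Barcodes under 500 genes, which entered no test of KO against HET, held Esr1 at 53.1 CPM in KO (95% counting interval 44.0 to 63.6, 118 UMIs), against 34.5 CPM in HET 2 (27.2 to 43.1, 77 UMIs). HET 1 had 2 such barcodes. Pgr had 4 and 2 UMIs there.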

How the results depend on the processing

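No paired analysis was possible because the numbers in the sample titles differ between the groups and the replicate numbers here only name libraries. With 1 KO library its spread is taken from the HET pair, and leaving out a HET library gave fold changes without a test. Added after seeing the data were the fits of single clusters, the unnamed clusters counted as luminal, the averaged thinning and the tests of differences between cell groups. The causes of the changes below were not tested.

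Called genes moved by over 1.5 times in these fits. Without the filter they were 43 in luminal and 499 in basal cells. DESeq2 called 96 in luminal, 60 in basal, 424 in seminal vesicle-like, 21 in ionocyte, 8 in fibroblast, 31 in smooth muscle and 8 in endothelial cells. Limma-voom called 192, 114, 2 and 214 in luminal, basal, fibroblast and smooth muscle cells. Median-ratio factors called 366 in basal cells and 66 in ionocytes, and plain totals 519, 84 and 8259 in basal, ionocyte and seminal vesicle-like cells. Looser and stricter cell filters called 545 and 509 in basal cells, and the stricter one 607 in seminal vesicle-like cells. Resolution 0.5 and another clustering seed called 166 each in fibroblasts, and doublets kept called 304 there and 89 in endothelial cells.

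Among members, Pdzk1 in luminal cells was -1.31 without the filter (adjusted p = 0.168) and -1.27 with DESeq2 (0.0531). Luminal Pgr was 1.80 (0.204) and 1.83 (0.247) under the same settings. Rerg in basal cells was 1.49 with DESeq2 (0.125). In seminal vesicle-like cells Rerg was -1.26 with DESeq2 (0.257) and -1.24 with the stricter filter (0.0623), and Esr1 was 1.32 (0.137) and 1.07 (0.0656), or 0.27 on plain totals (0.437). Pgr in ionocytes was 2.18 with median-ratio factors (0.0682) and 2.11 with DESeq2 (0.99996). Directions turned for Greb1 in luminal cells with unnamed clusters counted (0.0427), for Esr1 in ionocytes with doublets kept (-0.0941) or the looser filter (-0.0309), for Rerg in smooth muscle with doublets kept (0.0515), and for Esr1 in smooth muscle with plain totals (-0.11), doublets kept (-0.15) or the looser filter (-0.0233), none of them called.

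The KO minus HET gap in the share of luminal cells with Esr1 was 0.408 percentage points. It was 1.45 and 1.18 with looser and stricter filters, 3.62 at 3000 UMIs, 1.89 with another thinning seed, 1.44 averaged over thinnings and 6.72 with unnamed clusters counted.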

Other observations

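A group of 21 unnamed cells (cluster 31), led by the neuronal genes Vip, Cartpt, Nefl and Snap25, had the highest Rerg level of any cluster, at 132 CPM in HET 1 (12 UMIs in 14 cells) and 44.9 CPM in HET 2 (6 UMIs in 7 cells). Esr1 stood there at 66.2 and 59.8 CPM. The KO library held none of these cells.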
